A study of Mus musculus with 4 samples.

Results

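The genes that supply, remove and transport inorganic phosphate and its inhibitor inorganic pyrophosphate during mineralization were examined in mouse bone marrow-derived mesenchymal stem/progenitor cells (mBMSCs) after depletion of ZBP1. The members are 7 genes chosen by name for their known roles, with earlier results of these data known. They are Alpl, Smpd3, Phospho1, Enpp1, Ank, Slc20a1 and Slc20a2, and all 7 were found among the 24346 gene rows of the deposited expression table. RNA-seq was performed on 4 samples to ask which genes change when ZBP1, a sensor of Z-form nucleic acids, is depleted. The 2 siScr samples received scrambled siRNA and the 2 siZBP1 samples siRNA against Zbp1, both delivered with Lipofectamine RNAiMAX. RNA was collected 72 h after transfection. All 4 samples were primary cells of mice aged 3 months, of strain C57BL/6 by the labels and C57BL/6J by the methods, grown from femoral marrow after nonadherent cells had been washed away and kept in DMEM with fetal bovine serum. Neither the labels nor the methods say which of the study's siRNAs against Zbp1 these samples received, alone or together. They also leave unsaid whether the duplicates came from separate mice or cultures. The p-values therefore measure only the spread between these samples, which may be technical.

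Bone mineral is a calcium phosphate, and its deposition depends on the local balance between phosphate and pyrophosphate. Osteoblasts release matrix vesicles in which the first crystals form. Inside the vesicle, sphingomyelinase (Smpd3) and the phosphatase PHOSPHO1 free phosphate from membrane lipids, while on its surface tissue-nonspecific alkaline phosphatase (Alpl) hydrolyses pyrophosphate. Pyrophosphate is made outside the cell from nucleotides by ENPP1 and supplied from inside the cell through ANK, and the sodium-dependent transporters PiT-1 (Slc20a1) and PiT-2 (Slc20a2) carry phosphate across the membrane.

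Expression is given as FPKM, the number of sequenced fragments divided by transcript length and by the size of the library, a level per length that allows different genes to be set side by side. Numbers of reads are not given in the table. The most frequent ratios between samples of the lowest values gave relative depths of 1.00 to 1.87, and siZBP1 replicate 1 was the shallowest sample. Zbp1 was at 86.0 and 62.0 FPKM in the siScr samples and at 11.5 and 11.6 FPKM in the siZBP1 samples, in the direction of the labels. The mesenchymal and osteoblast markers were present, with summed levels of 450 to 550 FPKM over 10 genes and 4502 to 5325 FPKM over 6 genes in siScr samples. Macrophage markers were present too, with a summed level of 7505 to 8456 FPKM over 12 genes, none of them at 0, in cells labelled as mesenchymal. The levels of these 3 lists moved between the groups. In siZBP1 samples the summed level of the osteoblast markers was 2996 to 3039 FPKM, with 5 of 6 genes lower, and that of the mesenchymal markers was 317 to 321 FPKM, with 5 of 9 tested genes lower and Lepr too low to test. The summed level of the macrophage markers was 11808 to 12453 FPKM in siZBP1 samples, with 8 of 12 genes higher. Among all tested genes 14.8% were lower and 13.5% higher. High genes weigh most in such sums. Mean levels in siScr and siZBP1 samples were 3230 and 5636 FPKM for Lyz2 and 2793 and 1160 FPKM for Col1a1. The macrophage markers Adgre1, Ptprc, Cd14 and Fcgr1 and the osteoblast marker Col1a2 did not pass. By the same limma test, osteoclast markers had 1 gene lower and 1 higher of 2 tested. Adipocyte markers had 2 lower and 1 higher of 5 tested, with Plin1 listed at 0 in every sample. Chondrocyte markers had 1 lower, Col2a1, of 3 tested, and the only tested endothelial marker did not pass. Col2a1 and the osteoblast marker Bglap entered the test through the siScr samples, since both were under 1 FPKM in both siZBP1 samples. Over all marker lists 14 genes were lower and 10 higher, and 2 were lower and 0 higher when either siZBP1 sample was left out. The part of these marker shifts in the results on phosphate genes was not tested, and in bulk RNA fewer cells of a type cannot be told apart from less RNA per cell.

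Of the 7 genes, 4 were lower in siZBP1 cells, none was higher and 3 did not pass the test. The genes that fell were Alpl, Smpd3 and Phospho1, the enzymes of the matrix vesicle, and the transporter gene Slc20a2, with ratios of the group means between 1.59-fold and 10.9-fold. Enpp1, Ank and Slc20a1 did not pass. The test was limma on log2(FPKM + 1), with p-values adjusted over the 11959 genes with a mean of at least 1 FPKM and called under 0.05, and it called 14.8% of all tested genes lower and 13.5% higher. The 7 genes had a median log2 difference of -0.58, beside 0.0045 for all tested genes. Both siZBP1 samples lay below both siScr samples in 4 of the 7 genes, against 33.7% of tested genes, and above both in 1, against 34.7%. Smpd3 and Phospho1 passed the minimum level through the siScr samples, since both were under 1 FPKM in both siZBP1 samples. The 4 calls were lost when either siZBP1 sample was left out, a fit in which the remaining sample is assumed to vary like the siScr pair. For Alpl the limma adjusted p was then 0.0637 without siZBP1 replicate 1 and 0.0576 without replicate 2, that of Smpd3 0.0598 and 0.0502, that of Phospho1 0.0741 and 0.0828, and that of Slc20a2 0.0953 and 0.0792, with every difference still negative.

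**Figure D1:**
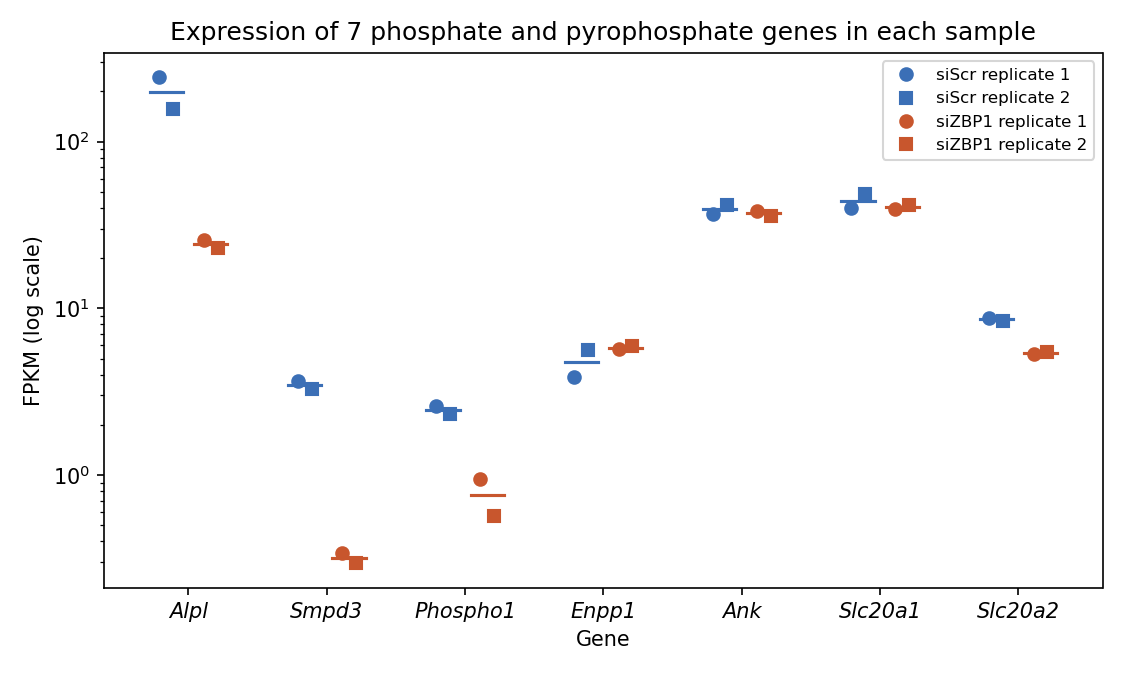
Expression of the 7 genes in each of the 4 samples, with FPKM on a log axis, circles for replicate 1, squares for replicate 2 and horizontal lines at the group means. The siZBP1 points of Alpl, Smpd3, Phospho1 and Slc20a2 lie below both siScr points, those of Enpp1 lie just above them, and the groups overlap for Ank and Slc20a1.

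The promoter sequences of Alpl and Phospho1, which were lower together, are shown with that of Enpp1, which was not. Each runs 5′ to 3′ on the gene's strand from 250 bases before to 50 bases after a start site, from RefSeq on GRCm38.p6, where 5 of the 7 genes matched with 7 promoters in all and Smpd3 and Slc20a2 had no entry. Alpl has 2 start sites, with promoters at chr4:137796335-137796634 and chr4:137766426-137766725 on the minus strand. The Phospho1 promoter is at chr11:95824250-95824549 on the plus strand, and that of Enpp1 at chr10:24712110-24712409 on the minus strand. Capitals mark matches on either strand to the RUNX core TGTGGT, the TCF/LEF core CTTTGA, the Sp1 GC box GGGCGG, the AP-1 site TGACTCA or the TATA box TATAAA.
Alpl, upstream start: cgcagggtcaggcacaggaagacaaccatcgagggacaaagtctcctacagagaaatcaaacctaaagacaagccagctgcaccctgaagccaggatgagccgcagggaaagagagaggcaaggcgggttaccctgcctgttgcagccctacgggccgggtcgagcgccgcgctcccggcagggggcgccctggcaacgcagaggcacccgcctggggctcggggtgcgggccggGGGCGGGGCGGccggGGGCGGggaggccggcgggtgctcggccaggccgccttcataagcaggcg
Alpl, downstream start: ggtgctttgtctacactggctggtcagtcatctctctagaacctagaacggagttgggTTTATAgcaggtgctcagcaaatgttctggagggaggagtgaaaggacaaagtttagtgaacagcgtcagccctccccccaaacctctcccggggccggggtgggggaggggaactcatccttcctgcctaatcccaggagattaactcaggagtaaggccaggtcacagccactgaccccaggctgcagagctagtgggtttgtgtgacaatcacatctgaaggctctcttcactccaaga
Phospho1: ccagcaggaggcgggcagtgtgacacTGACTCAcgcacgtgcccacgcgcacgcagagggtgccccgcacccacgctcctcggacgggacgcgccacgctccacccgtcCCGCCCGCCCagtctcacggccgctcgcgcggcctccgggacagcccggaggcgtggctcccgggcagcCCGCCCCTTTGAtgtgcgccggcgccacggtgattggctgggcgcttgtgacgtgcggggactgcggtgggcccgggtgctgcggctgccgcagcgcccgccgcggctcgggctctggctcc
Enpp1: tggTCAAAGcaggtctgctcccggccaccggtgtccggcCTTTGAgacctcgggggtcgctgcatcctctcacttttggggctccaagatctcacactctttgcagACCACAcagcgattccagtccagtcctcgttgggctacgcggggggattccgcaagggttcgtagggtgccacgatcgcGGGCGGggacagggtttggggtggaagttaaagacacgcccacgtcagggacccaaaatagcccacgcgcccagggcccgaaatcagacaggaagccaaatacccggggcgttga

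The upstream Alpl promoter held 3 GC boxes between positions -15 and 1 of the start site and no match to the other 4 motifs, and its GC content was 70%. The downstream Alpl promoter, at 54.3% GC, held 1 TATA match, on the opposite strand at -192. The Phospho1 promoter, at 77% GC, held 3 GC boxes on the opposite strand, an AP-1 match at -224 and a TCF/LEF core at -66. The core lies directly beside the GC box at -72. The Enpp1 promoter, at 61.7% GC, held a TCF/LEF core on the opposite strand at -247 and another on the gene's strand at -211. It also held a RUNX core on the opposite strand at -144 and a GC box at -65. The promoters of Ank and Slc20a1, which like Enpp1 did not pass the test, are not printed. That of Ank held GC boxes only. Those of Slc20a1 held GC boxes, with a RUNX core at -77 and a TATA match at -1 at the upstream start. Among 32817 promoters of this length, 35.6% held a GC box, 16.8% a RUNX core, 16% a TCF/LEF core, 13.6% a TATA match and 5.2% an AP-1 match. Positions count from 1 at the first transcribed base, with negative numbers before it, and matches of different motifs did not overlap. Such matches describe the letters of these windows only, and no binding was measured at these genes here.

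Alpl encodes tissue-nonspecific alkaline phosphatase, the enzyme that removes pyrophosphate and releases phosphate. It spans chr4:137741733-137796384 on the minus strand of GRCm38, with 8 transcripts in GENCODE M21, the longest of 12 exons. It was at 243 and 157 FPKM in the siScr samples and at 25.7 and 23.0 FPKM in the siZBP1 samples. Both siZBP1 samples were far below both siScr samples, and the siScr samples differed from each other by 1.55-fold. The siZBP1 mean of 24.3 ± 1.88 FPKM (SD, n = 2) was 12.2% of the siScr mean, which was 8.22-fold higher with an SD of 61.3 FPKM (n = 2). The log2 fold change was -2.96 (standard error 0.22, 95% interval -3.53 to -2.38, limma adjusted p = 0.00388). By log2 fold change on the log2(FPKM + 1) scale, Alpl ranked 48 from the largest fall among the tested genes, Smpd3 127, Phospho1 398 and Slc20a2 869. In siScr cells 97.1% of tested genes had a lower mean level than Alpl, and in siZBP1 cells 71.9%, so that Alpl was still above most tested genes.

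Smpd3 encodes neutral sphingomyelinase 2, which cleaves sphingomyelin into ceramide and phosphocholine, the substrate of PHOSPHO1. It lies at chr8:106252548-106337988 on the minus strand, with 2 transcripts, the longest of 9 exons. Its expression was 3.67 and 3.28 FPKM in the siScr samples and 0.343 and 0.295 FPKM in the siZBP1 samples. The groups were well apart and the replicates of each group close together. The mean fell from 3.48 ± 0.279 FPKM (SD, n = 2) to 0.319 ± 0.0334 FPKM (SD, n = 2), a 10.9-fold lower level and the largest ratio of means among the 7 genes. On the log2(FPKM + 1) scale, which understates changes of low genes, the difference was -1.76 (standard error 0.12, 95% interval -2.09 to -1.44, limma adjusted p = 0.00354). It was -3.09 with a pseudocount of 0.1 FPKM and -0.67 with 5 FPKM, past the threshold with both. Were all fragments from the longest transcript, the level of the siZBP1 samples would rest on about 18 and 25 fragments, against 264 and 316 in the siScr samples.

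Phospho1 encodes the phosphatase that releases phosphate from phosphocholine and phosphoethanolamine in the vesicle. It lies at chr11:95824499-95832140 on the plus strand, with 3 transcripts, the longest of 3 exons. It was at 2.59 and 2.33 FPKM in the siScr samples and at 0.941 and 0.571 FPKM in the siZBP1 samples. The siZBP1 samples were lower without overlap but differed from each other by 1.65-fold, and each rests on about 18 fragments by the same rough count. The mean fell from 2.46 ± 0.183 FPKM (SD, n = 2) to 0.756 ± 0.261 FPKM (SD, n = 2), 3.26-fold lower. The log2 fold change was -0.99 (standard error 0.16, 95% interval -1.40 to -0.57, limma adjusted p = 0.0157). It was -1.61 with a pseudocount of 0.1 FPKM and -0.37 with 5 FPKM, past the threshold with both, and it did not pass without siScr replicate 1 (-0.93, limma adjusted p = 0.0685). Smpd3 and Phospho1 were low genes already in siScr cells, where 17.8% and 12.1% of tested genes were below them. In siZBP1 cells 0.636% and 1.24% were. These last shares are kept small by the filter, since both genes were under 1 FPKM there and tested genes have a mean of at least 1 FPKM.

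**Figure D2:**
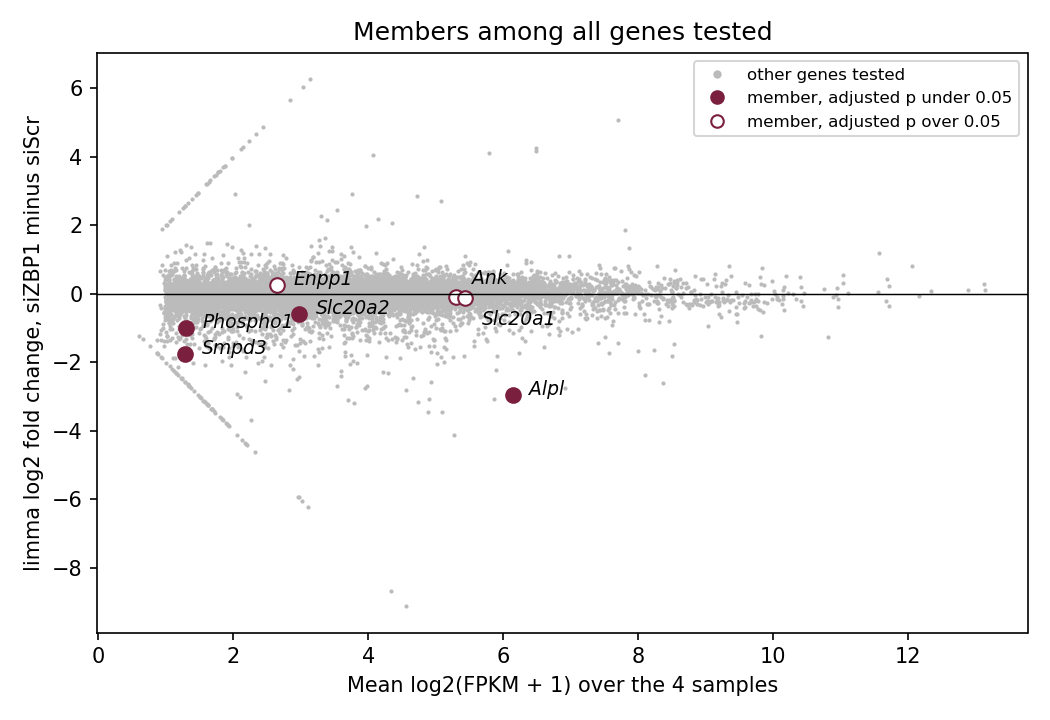
The limma log2 fold change (siZBP1 minus siScr) of every tested gene against its mean log2(FPKM + 1) over the 4 samples, with the 7 genes in dark red, filled where the adjusted p was under 0.05. Alpl stands at -2.96 among genes of high mean level, Smpd3 and Phospho1 are at the low end of expression, and Ank and Slc20a1 lie near 0. Diagonal rows of grey points are genes with a value of 0 in each sample of a group.

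Enpp1 encodes the ectoenzyme that splits nucleoside triphosphates to yield pyrophosphate outside the cell. It lies at chr10:24637914-24712159 on the minus strand, with 5 transcripts, the longest of 25 exons. It was at 3.90 and 5.65 FPKM in the siScr samples and at 5.72 and 5.91 FPKM in the siZBP1 samples. The siZBP1 values were both above the siScr values, but siScr replicate 2 lay next to them and siScr replicate 1 stood apart. The means were 4.77 ± 1.24 FPKM (SD, n = 2) and 5.82 ± 0.137 FPKM (SD, n = 2), a ratio of 1.22. The log2 difference of 0.26 did not pass the test (standard error 0.16, 95% interval -0.18 to 0.69, limma adjusted p = 0.306). Without siScr replicate 2 it was 0.48 and passed (limma adjusted p = 0.0448), and without siScr replicate 1 it was 0.04 (limma adjusted p = 0.783).

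Ank encodes the membrane protein through which cells supply pyrophosphate to the matrix. It lies at chr15:27466677-27594909 on the plus strand, with 2 transcripts, the longest of 12 exons. Its values were 36.8 and 41.9 FPKM in the siScr samples and 38.3 and 35.9 FPKM in the siZBP1 samples, and the groups overlapped. The means were 39.3 ± 3.59 FPKM (SD, n = 2) and 37.1 ± 1.71 FPKM (SD, n = 2), with a log2 difference of -0.08 (95% interval -0.28 to 0.13, limma adjusted p = 0.504). The sign turned without siScr replicate 2, to 0.01. The interval does not reach a change as large as that of any of the 4 genes that fell.

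Slc20a1 encodes the phosphate transporter PiT-1 and Slc20a2 its relative PiT-2. Slc20a1 lies at chr2:129198764-129211616 on the plus strand, with 8 transcripts, and Slc20a2 at chr8:22476788-22569612 on the plus strand, with 5 transcripts, the longest of each having 11 exons. Slc20a1 was at 39.8 and 48.5 FPKM in the siScr samples and at 39.5 and 41.5 FPKM in the siZBP1 samples, with overlapping groups. Its means were 44.1 ± 6.11 FPKM (SD, n = 2) and 40.5 ± 1.40 FPKM (SD, n = 2), and its log2 difference of -0.11 did not pass (95% interval -0.38 to 0.15, limma adjusted p = 0.452). Without siScr replicate 2 that difference turned to 0.02.

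Slc20a2 was at 8.80 and 8.36 FPKM in the siScr samples and at 5.31 and 5.49 FPKM in the siZBP1 samples. The replicates of each group were within 1.05-fold of each other, and the groups did not overlap. The mean fell from 8.58 ± 0.311 FPKM (SD, n = 2) to 5.40 ± 0.132 FPKM (SD, n = 2), 62.9% of the siScr level. The log2 fold change was -0.58 (standard error 0.07, 95% interval -0.77 to -0.39, limma adjusted p = 0.00953), the smallest of the 4 falls. With a pseudocount of 5 FPKM it was -0.39, still past the threshold. Phospho1 was then at -0.37, so the order of these falls depends on the pseudocount. The share of tested genes with a lower mean level was 39.8% in siScr cells and 28.6% in siZBP1 cells.

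The order of the mean levels per length changed between the groups. In siScr cells Alpl was highest, followed by Slc20a1, Ank, Slc20a2, Enpp1, Smpd3 and Phospho1, and of these neighbours only Slc20a1 and Ank had overlapping values. In siZBP1 cells Slc20a1 and Ank stood above Alpl, Enpp1 above Slc20a2, and Phospho1 above Smpd3. The values of neighbours in the siZBP1 order did not overlap, although Ank and Slc20a1 at 38.3 and 39.5 FPKM and Slc20a2 and Enpp1 at 5.49 and 5.72 FPKM came close.

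Ratios of FPKM between genes within a sample set the RNA of the enzyme that removes pyrophosphate against the RNA of the genes that supply it. Enzyme activity, phosphate, pyrophosphate and mineral were not measured in these samples. In bulk RNA the genes of a pair need not come from the same cells. The ratio of Alpl to Enpp1 was 62.4 and 27.7 in the siScr samples and 4.49 and 3.89 in the siZBP1 samples. The ratio of Alpl to Ank was 6.61 and 3.74 in the siScr samples and 0.669 and 0.640 in the siZBP1 samples. For both pairs every siZBP1 sample was below every siScr sample, and Alpl passed from above the level of Ank to below it. On the log2 scale with a pseudocount of 1 FPKM, the mean ratio of Alpl to Enpp1 went from 5.10 ± 0.759 (SD, n = 2) to 1.89 ± 0.136 (SD, n = 2), a difference of -3.21. The same difference for Alpl to Ank was -2.88.

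For the enzymes that act inside the vesicle, RNA of the cultures was compared, and vesicles were not examined. The ratio of Phospho1 to Smpd3 was 0.705 and 0.711 in the siScr samples and 2.75 and 1.93 in the siZBP1 samples. Phospho1 thus passed from below Smpd3 to above it, in both cases at low levels, with a log2 difference of 0.78, and of 1.48 with a pseudocount of 0.1 FPKM. The ratio of Slc20a1 to Slc20a2 was 4.52 and 5.79 in the siScr samples and 7.45 and 7.55 in the siZBP1 samples, with a log2 difference of 0.47. The groups were apart for all 4 ratios. A two-sided exact permutation test of 2 samples against 2 cannot give a p below 0.333, and each of the 4 ratios reached that value, also after adjustment over the 4.

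**Figure D3:**
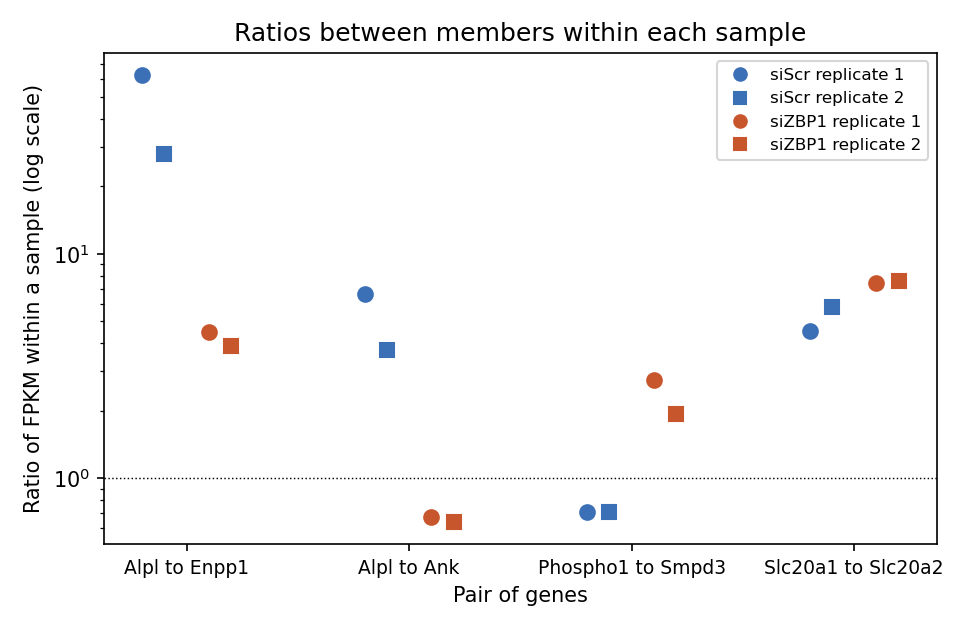
Ratios of FPKM between pairs of the 7 genes within each sample, on a log axis, with siScr in blue and siZBP1 in orange, circles for replicate 1 and squares for replicate 2. The dotted line marks equal levels. Both siZBP1 points of Alpl to Ank, at 0.669 and 0.640, lie under the line and those of Phospho1 to Smpd3, at 2.75 and 1.93, above it.

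Beyond the 7 genes, 69 genes of related pathways were examined in 5 lists, of which 50 were tested, 11 were lower, 8 were higher and 31 did not pass. These shares are to be read against the 14.8% and 13.5% of all tested genes that were lower and higher. No pathway gene passed in either direction when siZBP1 replicate 1 or siZBP1 replicate 2 was left out. Without siScr replicate 1 there were 8 lower and 5 higher, and without siScr replicate 2 there were 7 lower and 8 higher.

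Of the 16 genes of pyrophosphate and nucleotide hydrolysis, 8 were tested, with 1 lower and 2 higher and a median log2 fold change of 0.08. The other alkaline phosphatase genes Alpi, Akp3 and Alppl2 were listed at 0 in every sample, so that Alpl was the only listed alkaline phosphatase with a value above 0. Nt5e, which encodes the ectoenzyme CD73 that converts AMP into adenosine and phosphate, was at 2.73 and 5.48 FPKM in the siScr samples and at 20.8 and 21.3 FPKM in the siZBP1 samples. It rose by 2.16 on the log2 scale (standard error 0.27, limma adjusted p = 0.00954), with both siZBP1 samples far above both siScr samples. Ppa1, the cytosolic inorganic pyrophosphatase, was at 30.6 and 27.1 FPKM in the siScr samples and at 18.7 and 18.6 FPKM in the siZBP1 samples, and fell by 0.60 (limma adjusted p = 0.00896). Acp2, a lysosomal acid phosphatase, went from 34.0 and 34.1 FPKM to 42.1 and 41.6 FPKM, a rise of 0.29 (limma adjusted p = 0.0120).

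Of the 13 genes of phosphate transport and its hormones, 5 were tested, with 1 lower and 3 higher and a median of 0.18. Slc34a1, Slc34a2 and Slc34a3, the other family of sodium-phosphate transporters, and the secreted Fgf23 and Mepe were listed at 0 in all samples. Xpr1, the phosphate exporter, was at 18.6 and 18.3 FPKM in the siScr samples and at 25.0 and 26.8 FPKM in the siZBP1 samples. It rose by 0.47 (limma adjusted p = 0.00910). Of the 2 importer genes above, Slc20a2 was lower, and Slc20a1, at the higher level, did not pass (log2 difference -0.11, limma adjusted p = 0.452). Fam20c, a kinase of secreted mineral-binding proteins, was at 22.2 and 22.4 FPKM in the siScr samples and at 31.9 and 30.0 FPKM in the siZBP1 samples, a rise of 0.46 (limma adjusted p = 0.00821). Slc25a3, the mitochondrial phosphate carrier, rose by 0.18 (limma adjusted p = 0.0380), a call that was lost without any one of the 4 samples (limma adjusted p = 0.0970 with siScr replicate 1 left out and 0.0564 with siScr replicate 2 left out). Fgfr1, a receptor of fibroblast growth factors, was at 65.6 and 52.8 FPKM in the siScr samples and at 36.5 and 34.6 FPKM in the siZBP1 samples and fell by 0.71 (limma adjusted p = 0.0152).

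Of the 23 genes of sphingomyelin and phosphocholine metabolism, 20 were tested, with 4 lower, 1 higher and 15 not past the threshold, and the median was 0.01. Of the other sphingomyelinase genes Smpd1, Smpd2, Smpd4 and Smpd5, none passed the test, Smpd5 being too low to enter it, and their difference from Smpd3 was not tested. Smpd1, the lysosomal acid enzyme, was at 26.8 and 27.9 FPKM in the siScr samples and at 28.3 and 28.6 FPKM in the siZBP1 samples (log2 difference 0.06, limma adjusted p = 0.423), and Smpd2 and Smpd4 had log2 differences of 0.07 and -0.02. Slc44a1, a choline transporter, was at 31.7 and 30.5 FPKM in the siScr samples and at 18.1 FPKM in both siZBP1 samples and fell by 0.75 (limma adjusted p = 0.00323). Sgms2, a sphingomyelin synthase, fell by 0.63 (limma adjusted p = 0.0202) and Slc44a2, a relative of Slc44a1, by 0.32 (limma adjusted p = 0.0108). The fourth, Phospho2, a relative of Phospho1 that is named here after its values were seen, went from 17.1 and 17.2 FPKM to 14.4 and 14.7 FPKM, a fall of 0.22 (limma adjusted p = 0.0391) that did not pass without siScr replicate 2 (limma adjusted p = 0.0923) and also failed, with a higher adjusted p, when siScr replicate 1 was left out. Samd8, of the sphingomyelin synthase family, rose by 0.32 (limma adjusted p = 0.0242), and did not pass without siScr replicate 1 (limma adjusted p = 0.0771).

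The 9 annexin genes, whose calcium-dependent membrane proteins are abundant in matrix vesicles, were all tested, with 4 lower, 1 higher and a median of -0.12. Anxa5, the annexin used as a vesicle marker, was at 424 and 425 FPKM in the siScr samples and at 582 and 576 FPKM in the siZBP1 samples and rose by 0.45 (limma adjusted p = 0.00485). Anxa2 was at 440 and 397 FPKM in the siScr samples and at 324 and 327 FPKM in the siZBP1 samples and fell by 0.36 (limma adjusted p = 0.0186), and Anxa6 fell by 0.31 (limma adjusted p = 0.0113). Anxa8 fell by 0.40 (limma adjusted p = 0.0349) and did not pass without siScr replicate 2 (limma adjusted p = 0.0781). Anxa1, named after its values were seen, fell by 0.17 (limma adjusted p = 0.0375) and did not pass with siScr replicate 1 or 2 left out (limma adjusted p = 0.0678 and 0.0603), nor after quantile normalization (limma adjusted p = 0.148).

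Alkaline phosphatase needs zinc, delivered by the transporters of Slc30a5, Slc30a6 and Slc30a7, and a lipid anchor attached by the transamidase of Pigk, Pigt, Pigs, Pigu and Gpaa1. Of these 8 genes, 1 was lower, 1 was higher and 6 did not pass, with a median of 0.10. The log2 differences of Slc30a5, Slc30a6 and Slc30a7 were 0.13, 0.0037 and 0.13, none past the test. Pigk fell by 0.33 (limma adjusted p = 0.0233) and Gpaa1 rose by 0.37 (limma adjusted p = 0.0236). Neither of these calls held without siScr replicate 1 (limma adjusted p = 0.0523 and 0.0551), and that of Pigk also failed without siScr replicate 2 (limma adjusted p = 0.0637).

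**Figure D4:**
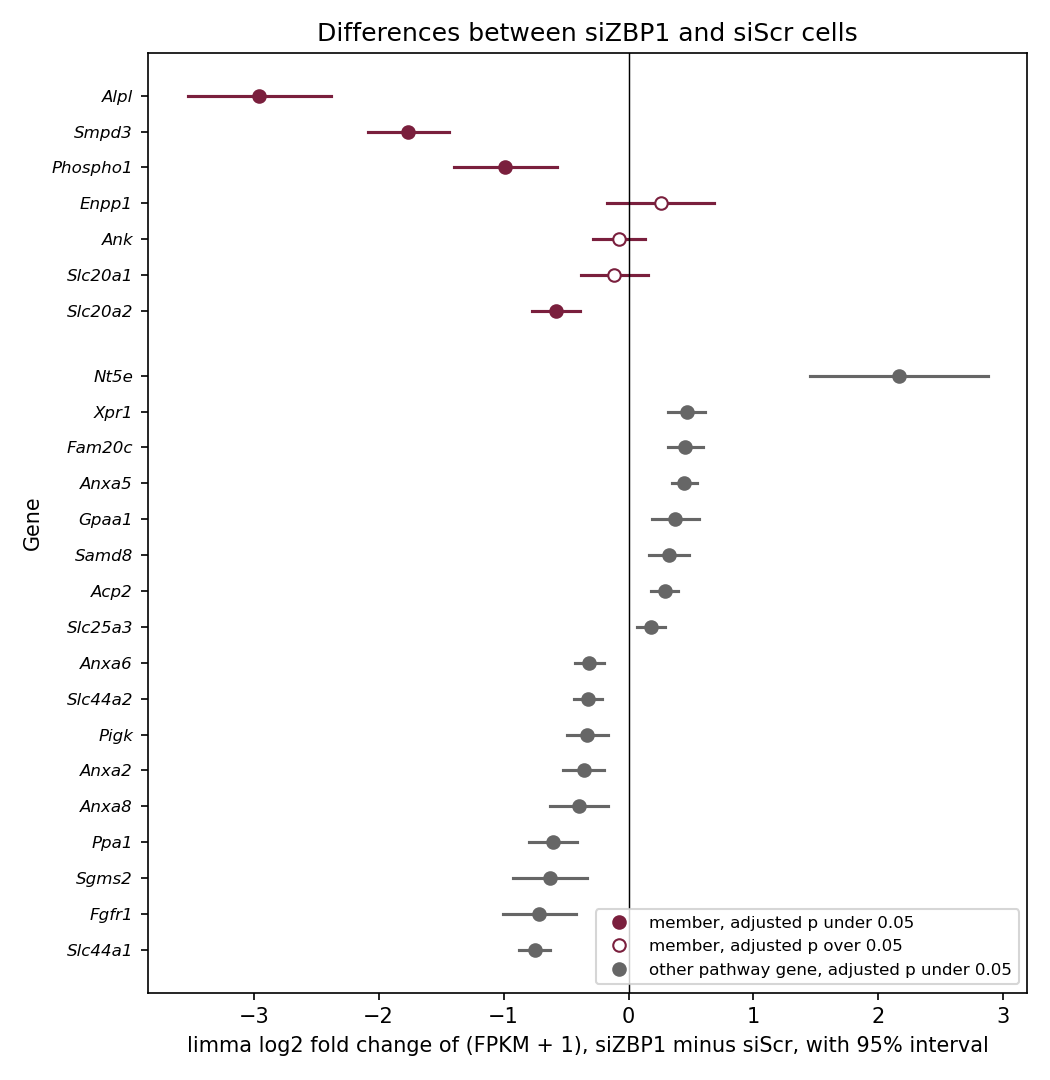
Differences by limma, as log2 fold changes, of the 7 genes (dark red) and of the pathway genes named by rule (grey), as points with 95% intervals, siZBP1 minus siScr. Filled points have an adjusted p under 0.05. The intervals of Enpp1, Ank and Slc20a1 span 0, and Nt5e at 2.16 is the highest of the genes shown.

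For each of the 4 genes that fell, the 3 tested genes with the most similar pattern were found by the Euclidean distance between log2(FPKM + 1) profiles over the 4 samples, each centred on its mean. With 4 samples, such a distance describes these libraries only. The scale understates changes of low genes, so a near pattern need not have a like ratio of FPKM. Mean FPKM fell 8.22-fold for Alpl, 10.9-fold for Smpd3 and 3.26-fold for Phospho1, and the gene nearest to each had a different ratio. Alpl was nearest to Npnt, an integrin ligand of the matrix, at a distance of 0.107, then to Ackr4 at 0.195 and to the chemokine gene Cxcl12 at 0.274. Npnt was at 14.4 and 8.59 FPKM in the siScr samples and at 0.525 and 0.488 FPKM in the siZBP1 samples, and like Alpl it was higher in siScr replicate 1 than in replicate 2. Cxcl12 is also one of the mesenchymal markers above, and its log2 fold change was -2.81 (limma adjusted p = 0.00210). Smpd3 was nearest to Tmem119, at 0.0580, with 29.6 and 27.0 FPKM in the siScr samples and 7.98 and 7.19 FPKM in the siZBP1 samples, followed by Wisp2 at 0.0841 and Efnb1, an ephrin, at 0.0881. The patterns nearest to Phospho1 were those of Oaf at 0.0934, Reck at 0.0961 and Pabpc4 at 0.0979. Those nearest to Slc20a2 were Atp10a at 0.00891, Tor1aip1 at 0.0156 and Rps24 at 0.0185, a ribosomal protein gene whose value is uncertain where processed copies share its reads. The log2 fold changes of these 12 genes lay between -3.01 for Npnt and -0.58 for Atp10a.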

How the data were processed

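The authors deposited one table of FPKM per gene symbol and sample for 2 siScr and 2 siZBP1 samples. According to the methods, libraries were made with the TruSeq kit and reads were mapped to the mouse genome with TopHat, and values were extracted with HTSeq. The submitters' processing notes name TopHat, Cufflinks and mm10. The annotation and any filter are not given in the sources used here, and nor are read counts, so no count model was applied and no interval covers counting error. The deposited group means were not used, and 4 rows, of no gene named here, share a gene symbol with another row.

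For the 11959 genes with a mean of at least 1 FPKM, log2(FPKM + 1) was fitted with limma 3.58.1 in R 4.3.3, allowing a variance trend. The test was two-sided, and the Benjamini-Hochberg adjustment ran over all of these genes, with a threshold of 0.05. Values per gene are the FPKM as deposited and fold changes of means are ratios of mean FPKM. With 2 samples against 2, the test rests on variance shared between genes. Ratios within samples were compared by exact permutation tests. The fit was tested on simulated data with independent replicates, which cannot show whether the duplicates here were technical. Relative depth came from the most frequent ratio between samples of the lowest FPKM values of the same gene, and rough fragment numbers from this depth and the longest GENCODE M21 transcript. Gene positions are those of GENCODE M21 on GRCm38, the assembly of mm10, and promoters are those of RefSeq on GRCm38.p6. Other steps used pandas 2.3.3, matplotlib 3.10.9, scipy 1.17.1 and numpy 2.4.6 under Python 3.11.15.

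The 7 members, the pathway and marker lists and the tests were chosen with earlier results of these data known. Named are all members, Zbp1, up to 3 genes called in each direction with the largest log2 fold change in each pathway list, and the 3 nearest patterns of each called member. The other list genes in the text, among them the sphingomyelinase and zinc transporter genes, the genes listed at 0, Phospho2 and Anxa1, were named after their values were seen. Alternatives were a replicate block, pseudocounts of 0.1 and 5 FPKM, no filter, a mean of at least 5 FPKM, quantile normalization, median centring, no variance trend and leaving out each sample.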

Additional observations from a re-analysis of the deposited data

How the results depend on the processing

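With all 4 samples, 8 alternatives kept every call of the 7 genes where they could be tested (30 of 30 values of called genes and 24 of 24 of the others). Smpd3 and Phospho1 gave no value with a mean of at least 5 FPKM. Same-numbered samples had a correlation of deviations of -0.063 over 11959 genes. With 2 samples per group the crossed numbers give that value with its sign turned, so it cannot show whether same-numbered samples shared an origin. With a replicate block the counts were 1654 lower and 1465 higher, the limma adjusted p of Alpl was 0.00116 and no call of the 7 genes changed. Of 151 values of named pathway genes that had passed, 139 kept their call. The 12 lost were of Slc25a3, Anxa8, Phospho2 and Anxa1, all with adjusted p from 0.0349 to 0.0391 before. Of these, Slc25a3, Phospho2 and Anxa1 were lost under the replicate block.

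Leaving out 1 sample changed more. The calls of Alpl, Smpd3, Phospho1 and Slc20a2 held in 7 of 8 fits without a siScr sample and in 0 of 8 without a siZBP1 sample, where a single sample is left. The log2 fold changes ranged from -3.27 to -2.64 for Alpl, -1.83 to -1.70 for Smpd3, -1.14 to -0.83 for Phospho1, 0.036 to 0.48 for Enpp1, -0.17 to 0.013 for Ank, -0.25 to 0.024 for Slc20a1, -0.62 to -0.55 for Slc20a2 and -2.79 to -2.33 for Zbp1. Over all genes, 48 to 1467 were called lower and 22 to 1248 higher. The counts were 0 to 8 in either direction over the pathway lists, and over the marker lists 2 to 17 lower and 0 to 10 higher. Each of these fits has fewer degrees of freedom, and why more calls were lost without a siZBP1 sample was not tested. The differences in ratios, run with a pseudocount of 0.1 FPKM and with each sample left out, kept their sign, and with that pseudocount the difference of Phospho1 to Smpd3 was 1.48. The rough fragment numbers limit Phospho1 and Smpd3 most, at about 18 to 25 fragments in siZBP1 samples.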
